A study of Mus musculus with 9 samples.

Results

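The comparison described here sets transcript levels in sorted brain endothelial cells of APP/PS1 mice against those of WT mice. It uses 6 of the 9 libraries of the series, the 3 labelled APP/PS1 and the 3 labelled WT, and all 23420 genes of the deposited count matrix, of which 13317 had enough counts to be tested. Each library came from 1 labelled mouse of strain C57BL/6, aged 6 months and labelled male. From the brain homogenate of each mouse 20000 cells positive for CD31 and negative for CD45 were sorted, and their RNA was made into a Smart-seq2 library, a full-length cDNA method that starts from oligo(dT) priming. The remaining genotype of the series, APP/PS1xRIPK1KD, enters only the estimate of the spread between libraries. The labels name neither the promoter nor the line of the APP/PS1 transgenes. Each label describes a separate mouse, and the p-values measure the spread between those mice and their libraries together.

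APP/PS1 mice carry mutant human transgenes that raise the production of amyloid peptide, and they deposit amyloid in the brain and along its vessels. Brain endothelial cells line those vessels, form the blood-brain barrier with their tight junctions and transporters, and rest on a basement membrane that they share with pericytes. Pericytes and smooth muscle cells, together called mural cells, wrap the endothelial tube, and astrocyte endfeet cover it from the outside.

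Total expected counts, the estimated read counts that RSEM assigns to genes, ran from 16263792 in APP/PS1 replicate 1 to 52413200 in APP/PS1 replicate 3. At these depths 3 counts, taken as the limit below which a transcript is not detectable, correspond to 0.189 CPM (counts scaled to the library's size with TMM factors) in the former library and 0.0559 CPM in APP/PS1 replicate 2. The ribosomal RNA precursor Rn45s took 29.6% to 33.8% of the counts in WT and 15.8% to 28.6% in APP/PS1, without overlap (exact 2-sided permutation p = 0.1, the smallest that 3 against 3 libraries allow). Although every mouse was labelled male, Xist, the RNA that coats the inactive X chromosome of female cells, reached 264 to 534 CPM in replicates 1 and 2 of both genotypes. Only replicate 3 of each carried Y-linked transcripts above 1 CPM, with sums of 185 and 149.8 CPM over Ddx3y, Eif2s3y, Uty and Kdm5d. The split was the same in both genotypes, and the main gene lists are given below also for replicates 1 and 2 alone.

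WT replicates 2 and 3 stood apart in different gene groups. WT replicate 3 had the highest level of the 6 libraries in 19 of 22 class I antigen presentation genes and in 20 of 30 interferon-stimulated genes. WT replicate 2 had the lowest level in 8 of 10 smooth muscle genes, 12 of 15 venous and 10 of 16 arterial endothelial genes, and the highest in 9 of 12 capillary genes. Over all genes tested, WT replicate 2 was lowest in 18.1% and highest in 19.2%, and WT replicate 3 was highest in 13.5%.

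The libraries carried the endothelial profile that the label names. Cldn5, the main claudin of the barrier's tight junctions, stood at 7772, 5858 and 6859 CPM in WT and 5597, 5871 and 8458 CPM in APP/PS1. CD31, the protein on which the cells were sorted, is the product of Pecam1, measured at 1234, 1075 and 1183 CPM in WT and 976, 1184 and 1227 CPM in APP/PS1. Both sets of 3 overlapped, and fold changes were close to 0 (-0.040 ± 0.16 and -0.044 ± 0.12, log2 ± SE). Of the 16 endothelial identity genes, all tested, 14 had a fold change below 0, with a median log2 fold change of -0.078 against 0.0019 over all genes tested, and none had an unadjusted p under 0.05. The range ran from -0.27 for Kdr, a VEGF receptor, to 0.15 for the organic anion transporter Slco1a4. Ptprc, which encodes CD45, was at 0 in 4 of the 6 libraries and at 0.128 and 0.168 CPM in the other two. Of 13 leukocyte markers in the matrix only 4 had enough counts to be tested.

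APP/PS1 libraries carried more of 3 transcripts at a false discovery rate (FDR) under 0.05, and the 2 described here, Vtn and Atp13a5, are both known from brain pericytes. The 3 calls are 0.0225% of the 13317 genes tested with edgeR's quasi-likelihood test, all of them higher. With no adjustment, p was under 0.05 in the same test for 465 genes on the higher side (3.49%) and 353 on the lower (2.65%). All 3 APP/PS1 libraries lay above all 3 WT libraries in 5.43% of genes and below them in 5.44%. DESeq2 called 35 higher and 10 lower (0.34% of the genes to which it gave an adjusted p). The median SE of a log2 fold change was 0.280 over all genes and 0.224 over the 9724 genes with a mean of at least 5 CPM.

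**Figure D1:**
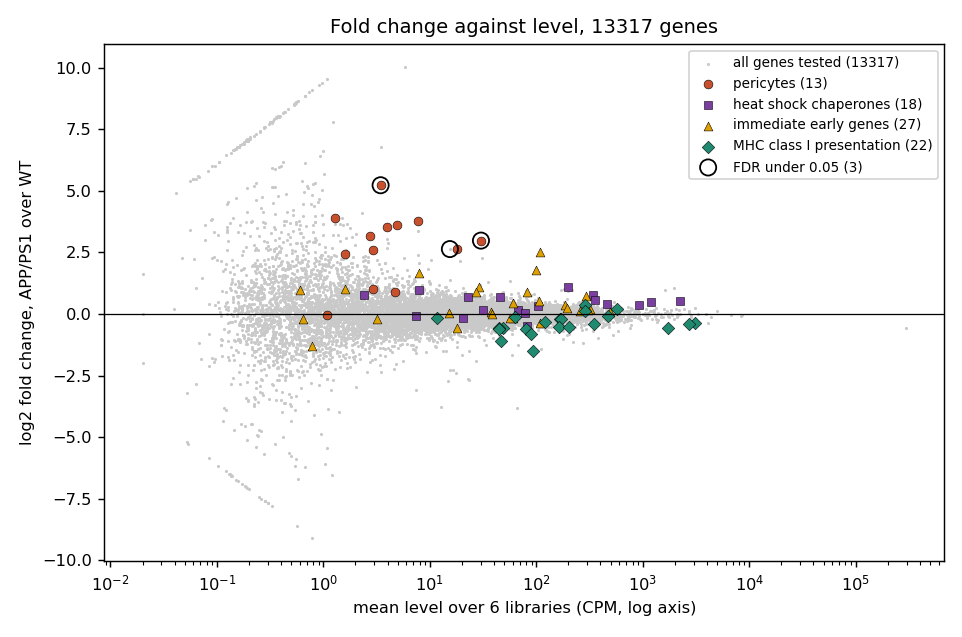
Each point is 1 of the 13317 genes tested, with its mean CPM over the 6 libraries on a log axis and its log2 fold change, APP/PS1 over WT, on the vertical axis. Coloured symbols mark 4 gene lists and open circles the 3 genes past an FDR of 0.05. The pericyte genes lie above 0 with 1 exception, the chaperones of high level lie slightly above 0 and most MHC class I genes slightly below; the straight lines of points at low levels are genes with 0 counts in 1 genotype.

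Vtn encodes vitronectin, a glycoprotein of the extracellular matrix. It stood at 9.65, 3.24 and 7.47 CPM in WT and 48.2, 52.9 and 59.5 CPM in APP/PS1. The lowest APP/PS1 library lay well above the highest WT library, and the transcript rose in the test (log2 fold change 2.98 ± 0.36 SE, FDR 0.0135). The gene lies on chromosome 11 from 78499091 to 78502324 (GRCm38, protein-coding). Atp13a5, a P5-type ATPase, was close to the detection limit in WT and clear of it in every APP/PS1 library, at 0.266, 0.211 and 0.0642 CPM in WT and 4.09, 7.66 and 8.36 CPM in APP/PS1 (log2 fold change 5.23 ± 0.65 SE, FDR 0.0135). It lies on chromosome 16 from 29231851 to 29378732 and is protein-coding. Neither call held in every setting. Atp13a5 missed the threshold in limma-voom (FDR 0.803), in the quasi-likelihood test on the 6 libraries alone (0.105) and without WT replicate 2 (0.0752), while Vtn missed it without APP/PS1 replicate 1 (0.0505). Without WT replicate 3 the FDR was 0.061 for Vtn and 0.061 for Atp13a5, and without APP/PS1 replicate 3 it was 0.062 and 0.062. With replicates 1 and 2 alone it was 0.116 and 0.146, with log2 fold changes of 2.97 and 4.61 in the latter setting. A covariate for high or low Xist in the fit of all libraries left both genes under 0.05 (FDR 0.036 for Atp13a5).

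All but 1 of the other pericyte markers lay on the same side. Of the 13 on the list, all passed the filter on low counts, 12 had a fold change above 0, 10 had an unadjusted p under 0.05 in that direction, and 11 did not overlap between the genotypes. The median log2 fold change was 2.98, and over all genes tested 5.43% were higher without overlap. Summed over the list, levels were 29.6, 12 and 26.4 CPM in WT and 138, 174 and 132 CPM in APP/PS1 (exact 2-sided permutation p = 0.1, the smallest possible), a 6.53-fold difference of the means. In a bulk library a larger number of pericytes cannot be told apart from more pericyte RNA per cell. With replicates 1 and 2 alone, 12 of 13 members were above 0 and 8 had an unadjusted p under 0.05, with a median of 2.97.

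Among those that did not pass the FDR threshold, Rgs5, a regulator of G protein signalling that marks pericytes, stood at 6.4, 1.61 and 6.93 CPM in WT and 29.4, 46.6 and 16.6 CPM in APP/PS1 (log2 fold change 2.63 ± 0.55 SE, FDR 0.596). Abcc9 and Kcnj8, the subunits of the vascular ATP-sensitive potassium channel, stood at 0.561, 0.185 and 1.48 CPM in WT and 6.67, 15 and 5.84 CPM in APP/PS1 and at 0.797, 0.554 and 0.278 CPM in WT and 3.78, 4.53 and 6.46 CPM in APP/PS1. The groups did not overlap in any of the 3 genes, and DESeq2 called Rgs5 (adjusted p = 8.84e-05) and Abcc9 (7.12e-05) among 7 members of the list. Rgs4, a relative of Rgs5, was at 1.56, 0.0264 and 1.56 CPM in WT and 11, 19.9 and 12.8 CPM in APP/PS1, and the mitochondrial protein gene Ndufa4l2 at 0.0885, 0.237 and 0.150 CPM in WT and 1.51, 3.56 and 2.11 CPM in APP/PS1. Pdgfrb, the receptor through which endothelial PDGF-B recruits pericytes, was uneven, at 1.56, 0 and 0.300 CPM in WT and 15.8, 1.42 and 4.41 CPM in APP/PS1, and its groups overlapped. Notch3, the mural Notch receptor, was only slightly apart at 4.13, 2.61 and 3.23 CPM in WT and 7.05, 6.39 and 4.87 CPM in APP/PS1 (log2 fold change 0.87 ± 0.39 SE, unadjusted p = 0.0441). Anpep alone lay below 0 (-0.031 ± 1.1).

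Smooth muscle genes, which encode the contractile apparatus of arteriolar walls, were also higher in APP/PS1, without a gene past the FDR threshold. All 10 were tested, 9 lay above 0 and 3 had an unadjusted p under 0.05, with a median log2 fold change of 2.12. Without overlap 7 were higher, against 5.43% of all genes tested. Smooth muscle actin, Acta2, stood at 18.8, 1.13 and 11.7 CPM in WT and 39.4, 60.1 and 55.6 CPM in APP/PS1. Tagln, an actin-binding protein, stood at 5.22, 1.95 and 1.88 CPM in WT and 10.8, 15.1 and 12.2 CPM in APP/PS1 (log2 fold change 2.08 ± 0.58 SE, FDR 0.787). Cnn1, calponin, was under 0.1 CPM in all WT libraries and at 2.58, 2.24 and 1.11 CPM in APP/PS1. The WT values spread widely, since WT replicate 2 was the lowest library for most of these genes, and without it the median was 1.67 with 2 genes at an unadjusted p under 0.05. Summed levels were 160.3, 35.2 and 123 CPM in WT and 197, 261 and 280.5 CPM in APP/PS1, with WT replicate 1 the closest to APP/PS1. Mylk, myosin light chain kinase, which endothelial cells express too, was the most abundant member in the mean and overlapped between the groups (0.77 ± 0.64).

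**Figure D2:**
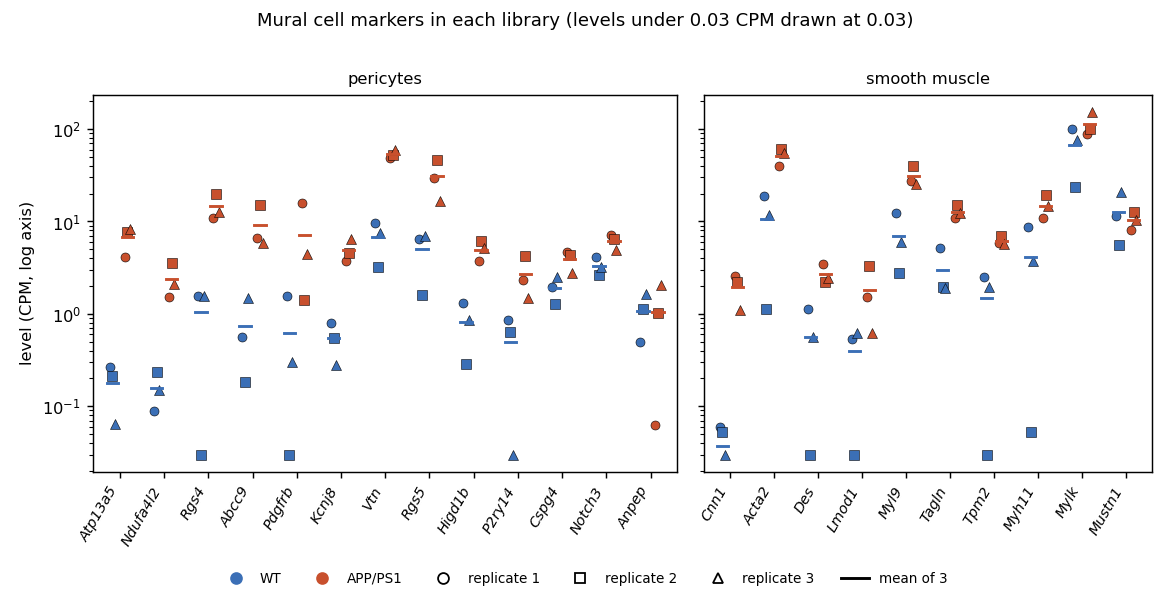
Levels of 13 pericyte and 10 smooth muscle markers in each library, in CPM on a log axis, ordered by fold change. Circles, squares and triangles are replicates 1, 2 and 3, WT in blue and APP/PS1 in red, and the short lines are the means of 3. The red symbols lie above the blue ones for 11 pericyte and 7 smooth muscle genes, and the blue square, WT replicate 2, is lowest for 8 genes of each list.

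Markers of cells further from the endothelium were low and uneven. Of 12 perivascular fibroblast markers 6 were tested and 5 lay above 0. The fibrillar collagen gene Col3a1 stood at 0.620, 0 and 0.150 CPM in WT and 4.22, 1.81 and 7.15 CPM in APP/PS1 and the proteoglycan gene Dcn at 0.384, 0 and 0.0428 CPM in WT and 2.71, 0.317 and 2.44 CPM in APP/PS1. Lum, Dpt and Col6a1 were at 0 in all 6 libraries. The summed level of the list, most of it Mgp, which arterial endothelium also expresses, overlapped between the genotypes (exact permutation p = 0.5).

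Of 12 astrocyte markers 9 were tested. Gjb6, the astrocyte connexin 30, and Ntsr2, a neurotensin receptor, had 0 counts in all WT libraries. In APP/PS1 they stood at 0.378, 1.94 and 1.11 CPM and at 1.45, 0.895 and 0.914 CPM, which is at least 14.8-fold higher for Gjb6 and at least 14-fold higher for Ntsr2 when WT is set to the mean level of 3 counts per library. Slc1a3, an astrocyte glutamate transporter, was at 3.63, 3.22 and 0.556 CPM in WT and 6.8, 4.94 and 10.6 CPM in APP/PS1 (log2 fold change 1.6 ± 0.66 SE, and 0.77 with replicates 1 and 2 alone). In contrast Aqp4, the water channel of astrocyte endfeet, did not exceed 0.0993 CPM in APP/PS1, Mlc1 was at 0 in all 6 libraries, and the intermediate filament gene Gfap overlapped at 0.0295, 0.0527 and 1.11 CPM in WT and 0.252, 0.317 and 1.23 CPM in APP/PS1. The summed astrocyte level was 78.3, 111 and 39.4 CPM in WT and 73.9, 73.2 and 79.7 CPM in APP/PS1 (exact permutation p = 1), and Gja1, which made up most of it, lay on the other side of 0 (-0.22 ± 0.28).

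Oligodendrocyte markers summed to 768, 610.02 and 663 CPM in WT and 599, 734 and 696 CPM in APP/PS1 (ratio 0.994, exact permutation p = 0.9), most of it Mal, while the less abundant myelin genes were led by 1 library. Mbp, myelin basic protein, stood at 0.679, 0.290 and 1.6 CPM in WT and 2.2, 5.42 and 13.8 CPM in APP/PS1. APP/PS1 replicate 3 was the highest of the 6 libraries in 7 of 9 tested oligodendrocyte genes, and without it 0 of them had an unadjusted p under 0.05, against 4 with it. The same library held the most globin RNA, with Hba-a1 at 1079.8, 1433 and 1319.9 CPM in WT and 1570.2, 1075 and 5249.8 CPM in APP/PS1, where reads of the near-identical Hba-a2 may be split between the copies. Of the microglial markers 11 of 12 lay above 0, with a median of 0.60 and no unadjusted p under 0.05. Among them the fractalkine receptor Cx3cr1 stood at 0.354, 0.659 and 0.300 CPM in WT and 1.26, 1.06 and 2.11 CPM in APP/PS1, and Trem2, a receptor of plaque-associated microglia, at 0.443, 1.16 and 1.01 CPM in WT and 0.629, 0.839 and 3.95 CPM in APP/PS1. Ttr, the transthyretin of the choroid plexus, stood at 66.6, 38.4 and 58.2 CPM in WT and 49.5, 128 and 134 CPM in APP/PS1 and Kcnj13, a choroid plexus potassium channel, at 0.207, 0.185 and 0.235 CPM in WT and 0.818, 6.5 and 0.616 CPM in APP/PS1 (log2 fold change 3.65 ± 0.99 SE, and 1.75 without APP/PS1 replicate 2). Of the 6 platelet genes 5 lay below 0, with Itga2b, the platelet integrin subunit, at 1.8, 1.66 and 1.16 CPM in WT and 0.441, 0.485 and 0.417 CPM in APP/PS1. The part that any of these cells play in the differences described below was not tested.

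Outside the mural genes, the smallest p-values on the lower side belonged to genes of diverse function. A rule took the 12 genes per direction with the smallest p among those of at least 5 CPM whose groups did not overlap, and none of the lower ones passed the FDR threshold. Tmem252, a transmembrane protein gene, stood at 276, 232 and 244 CPM in WT and 129, 168 and 122 CPM in APP/PS1 (log2 fold change -0.84 ± 0.14 SE, FDR 0.156). Kbtbd11, a Kelch and BTB domain gene, stood at 169, 201 and 177 CPM in WT and 117, 109.6 and 102 CPM in APP/PS1 and Galnt15, which encodes a glycosyltransferase of O-linked sugar chains, at 38.4, 35.7 and 39.6 CPM in WT and 19.5, 21 and 19.4 CPM in APP/PS1. The 3 APP/PS1 values of each lay close together and well below the lowest WT value, and DESeq2 gave adjusted p = 0.00015, 0.000774 and 0.00611. Col13a1, a transmembrane collagen gene, stood at 31.4, 43.5 and 16.1 CPM in WT and 7.55, 8.98 and 12 CPM in APP/PS1 (log2 fold change -1.66 ± 0.42 SE), and Hcn2, a pacemaker channel gene, at 12.5, 13.5 and 7.53 CPM in WT and 4.91, 2.22 and 4.09 CPM in APP/PS1 (log2 fold change -1.59 ± 0.39 SE). Crtc2, a coactivator of CREB, was at 44, 55.4 and 53.8 CPM in WT and 28.5, 31.2 and 33 CPM in APP/PS1 and Orai3, a subunit of store-operated calcium channels, at 50.2, 59.6 and 48.3 CPM in WT and 37.5, 29.3 and 31.3 CPM in APP/PS1. Stoml1, Nadsyn1, which completes NAD synthesis, Shkbp1, the mitochondrial thymidine kinase Tk2 and Por, the electron donor of microsomal cytochrome P450, had log2 fold changes of -0.88, -0.90, -0.87, -1.05 and -0.52. DESeq2 called 6 of the 12 lower genes, against 0.34% of all genes in either direction. The 12 were chosen by their p in the same counts, so DESeq2's values for them are not independent evidence.

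On the higher side the same rule took Vtn and Rgs5, described above, and further genes without a shared list. Braf, a kinase of the MAP kinase cascade, stood at 29.6, 28.5 and 28.8 CPM in WT and 45.9, 48.9 and 43.5 CPM in APP/PS1 (log2 fold change 0.67 ± 0.15 SE, FDR 0.707). The WT values lay within 2 CPM of each other. Rictor, the defining subunit of mTOR complex 2, stood at 42.9, 46.2 and 45.7 CPM in WT and 74.4, 81.4 and 56.2 CPM in APP/PS1 and Msl1, a subunit of a histone acetyltransferase complex, at 38.9, 39.8 and 43.4 CPM in WT and 61.4, 67.5 and 54.8 CPM in APP/PS1. Hspa4l, a chaperone of the Hsp110 family, stood at 10.5, 5.93 and 9.2 CPM in WT and 25.5, 29.5 and 12 CPM in APP/PS1 (log2 fold change 1.38 ± 0.34 SE), with APP/PS1 replicate 3 only just above WT. Angpt2, the Tie2 ligand that destabilises vessels, stood at 12.1, 12.9 and 14.9 CPM in WT and 32.2, 26.7 and 24.8 CPM in APP/PS1 (log2 fold change 1.07 ± 0.25 SE), without overlap. Zfp229, Hsdl1, Aasdh and Sarnp had log2 fold changes of 1.08, 0.67, 1.53 and 0.56. Since the libraries keep no strand, reads of Braf and Angpt2 cannot be told apart from those of the genes that overlap them on the other strand, Ndufb2 and Mcph1. Abcc9, Tagln, Msl1, Sarnp, Hsp90b1, Bmp4, Bmp6, Nid2, Ncstn, Kcnj13, Cx3cr1 and Ikbkg also overlap a neighbour on the other strand and carry the same uncertainty. Msl1, Sarnp and Cx3cr1 overlap a gene on their own strand too. DESeq2 called 8 of the 12 higher genes, which were chosen in the same way, so that this count is not independent evidence either.

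Chaperone genes of the heat shock response were on the whole higher in APP/PS1. Heat shock factor drives many of them when unfolded protein accumulates in the cytosol. The list also holds Hspa5, a chaperone of the endoplasmic reticulum. Of 18 genes, all tested, 15 lay above 0, and 10 had an unadjusted p under 0.05 in that direction and 1 in the other. All APP/PS1 libraries lay above all WT libraries in 7, against 5.43% of all genes tested. The median log2 fold change was 0.45. None passed the FDR threshold. Summed levels were 4933, 5362 and 5034 CPM in WT and 6665, 8017 and 6912 CPM in APP/PS1 (exact permutation p = 0.1, the smallest possible), a 1.41-fold difference of the means.

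Of the cytosolic Hsp90 and Hsp70 genes on the list, all but Hspa1b separated the genotypes, Hspa1a only barely. Hsp90aa1, the inducible form, stood at 234, 261 and 258 CPM in WT and 429.7, 531 and 335 CPM in APP/PS1 (log2 fold change 0.79 ± 0.20 SE, FDR 0.707), and Hsp90ab1, the constitutive form, at 988, 986 and 1018 CPM in WT and 1185, 1581 and 1432 CPM in APP/PS1. Hspa8, the constitutive Hsp70, stood at 1702, 1960.5 and 1766 CPM in WT and 2355, 3364 and 2179 CPM in APP/PS1 and Hsph1, its nucleotide exchange factor, at 31.4, 37.2 and 34.4 CPM in WT and 55.4, 67.5 and 44.4 CPM in APP/PS1. In all 4 genes the lowest APP/PS1 library exceeded the highest WT library. Hspa1a, the inducible Hsp70, stood at 145, 109.7 and 127 CPM in WT and 392, 147 and 281 CPM in APP/PS1, where APP/PS1 replicate 2 was barely above the highest WT library, and reads of its near-identical copy Hspa1b may be split between them. The endoplasmic reticulum chaperones Hspa5 and Hsp90b1 stood at 358, 369 and 451 CPM in WT and 493, 569.8 and 512 CPM in APP/PS1 and at 442, 411 and 504 CPM in WT and 526, 535 and 652 CPM in APP/PS1. The mitochondrial chaperonin Hspd1 was at 77.9, 98.8 and 99.4 CPM in WT and 112, 119 and 113 CPM in APP/PS1, while its partner Hspe1 overlapped (0.14 ± 0.19). Bag3, a co-chaperone of the same response, was on the other side at 112, 110.3 and 64.3 CPM in WT and 74.8, 59 and 71.5 CPM in APP/PS1 (log2 fold change -0.48 ± 0.21 SE). Without WT replicate 1 or without APP/PS1 replicate 2 the number with an unadjusted p under 0.05 was 6, and with replicates 1 and 2 alone it was 9.

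Immediate early genes, which are transcribed within minutes of a stimulus such as a growth factor or stress, showed a steeper difference in fewer members. Of 28 genes 27 were tested, 19 lay above 0 and 7 had an unadjusted p under 0.05, all of them higher, with a median of 0.21. All APP/PS1 libraries were above all WT libraries in 8 genes and below them in 2, against 5.43% and 5.44% of all genes tested. Fos, a subunit of the factor AP-1, stood at 34.7, 32.8 and 28.4 CPM in WT and 255, 72.2 and 220.3 CPM in APP/PS1 (log2 fold change 2.51 ± 0.55 SE, FDR 0.707). Cyr61, a secreted matrix protein and target of YAP, stood at 49.4, 53.9 and 30.1 CPM in WT and 259.7, 63.3 and 139 CPM in APP/PS1 (log2 fold change 1.79 ± 0.44 SE). Egr1, a zinc finger factor, stood at 21.8, 15.5 and 17.8 CPM in WT and 44.8, 22.8 and 51.6 CPM in APP/PS1, and Atf3, a stress-induced factor, at 21.9, 22.5 and 12.4 CPM in WT and 49.2, 23.7 and 32.2 CPM in APP/PS1. In these genes APP/PS1 replicate 2 was the lowest of its group and closest to WT. The phosphatase Dusp1 and the RNA-decay factor Zfp36 were more even among APP/PS1 libraries, at 388, 331 and 373 CPM and at 66.5, 69.9 and 72.5 CPM, against 329, 247 and 83.9 CPM and 52.2, 59.9 and 40.1 CPM in WT. Jun, the partner of Fos, overlapped at 374, 343 and 153 CPM in WT and 434, 165 and 381 CPM in APP/PS1, as did Junb (0.51 ± 0.35), and Jund was lower in all APP/PS1 libraries at 29.9, 16.4 and 17.8 CPM in WT and 14.6, 13.3 and 15.4 CPM in APP/PS1. WT replicate 3 was the lowest of the 6 libraries in 13 of the 27 genes. Without it 5 genes were higher and 1 lower at an unadjusted p under 0.05, and with replicates 1 and 2 alone 3 were higher. Without WT replicate 1 the median was 0.45, with 9 genes higher and 1 lower, and without WT replicate 2 it was 0.34. Single libraries also moved Jund (-0.56, and -0.24 without WT replicate 1) and Cyr61 (1.18 without APP/PS1 replicate 1).

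The promoters of these groups are shown because most of their members lay on the same side of 0. The sequence entries are RefSeq's for GRCm38.p6, and 13 of 18 chaperone and 22 of 28 immediate early genes had one. The 5 promoters printed were chosen from the lists, and each carries the pattern marked in it, unlike most promoters of its list. The 120 bases before the annotated start are given 5′ to 3′ on the gene's strand. Capitals mark GAANNTTC or TTCNNGAA, a pair of facing units of a heat shock element, in the chaperones, and TGACG or CGTCA, the core of the cAMP response element read on either strand, in the immediate early genes.
Hspa1a, chr17:34972157-34972276, minus strand: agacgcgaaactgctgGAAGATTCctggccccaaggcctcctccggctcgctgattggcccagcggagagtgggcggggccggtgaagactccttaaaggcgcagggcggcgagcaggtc
Hsph1, chr5:149636337-149636456, minus strand: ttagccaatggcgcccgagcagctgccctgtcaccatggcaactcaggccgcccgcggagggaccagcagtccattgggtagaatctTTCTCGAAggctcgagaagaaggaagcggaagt
Fos, chr12:85473770-85473889, plus strand: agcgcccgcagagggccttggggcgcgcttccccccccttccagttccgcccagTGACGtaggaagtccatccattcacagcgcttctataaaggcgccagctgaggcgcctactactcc
Cyr61 (Ccn1), chr3:145649986-145650105, minus strand: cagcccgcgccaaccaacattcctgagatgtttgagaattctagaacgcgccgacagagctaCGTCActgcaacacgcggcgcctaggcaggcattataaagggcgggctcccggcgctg
Fosb, chr7:19310046-19310165, minus strand: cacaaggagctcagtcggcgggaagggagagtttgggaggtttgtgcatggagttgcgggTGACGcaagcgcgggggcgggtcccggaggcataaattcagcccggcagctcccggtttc
In this window the heat shock pattern occurred in 5 of 13 chaperone promoters and in 6.22% of all 32851 promoters, and the cAMP element core in 7 of 22 immediate early promoters and in 11.7% of all. That core was also in 3 of the 13 chaperone promoters. The heat shock pattern was in 1 of the 22 immediate early promoters, that of Cyr61, where it is left in small letters above. Within 250 bases before the start the core was in 10 of 22 immediate early and 5 of 13 chaperone promoters, against 17.8% of all. The heat shock pattern was there in 6 of 13 chaperone and 3 of 22 immediate early promoters, against 12.8% of all. A match of these letters is a description of the window and not a measured site.

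**Figure D3:**
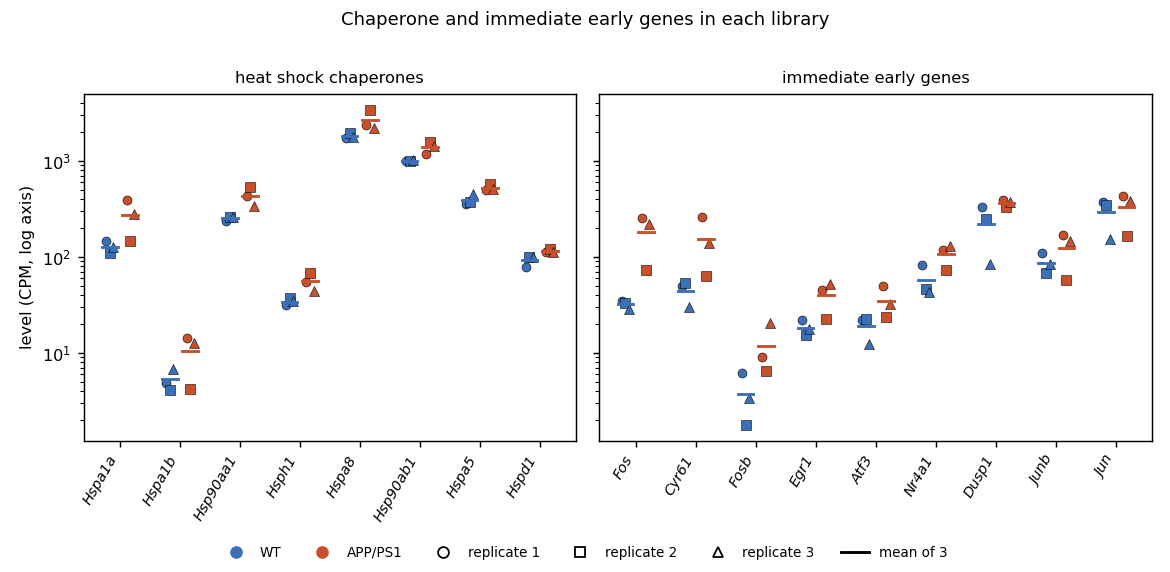
Levels of 8 chaperone and 9 immediate early genes in each library, in CPM on a log axis, with symbols as in the plot of mural markers. The 3 APP/PS1 libraries of Hsp90aa1, Hsph1, Hspa8 and Hsp90ab1 lie together above WT, whereas for Fos and Cyr61 the red square, APP/PS1 replicate 2, lies closest to WT.

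Antigen presentation genes were lower in APP/PS1, and most of that difference came with 1 WT library. Class I molecules present cytosolic peptides, and endothelial cells express them constitutively. Of 22 class I pathway genes, all tested, 19 lay below 0 and 6 had an unadjusted p under 0.05 in that direction. In 2 all APP/PS1 libraries lay below all WT libraries, against 5.44% of all genes tested, and the median was -0.40. B2m, the light chain of every class I molecule, stood at 2282, 2676 and 5496 CPM in WT and 2798, 3054 and 2186 CPM in APP/PS1. H2-K1, a classical heavy chain, stood at 1417, 1547 and 3290.4 CPM in WT and 1298, 1351 and 1524 CPM in APP/PS1 and the peptide transporter subunit Tap1 at 72.1, 70.6 and 199 CPM in WT and 62.4, 51.9 and 79.7 CPM in APP/PS1; heavy chain genes are near-identical in part, so that reads may be split among them. In all 3 the library apart from the rest was WT replicate 3. H2-M3, which presents formylated peptides, lay below the other WT libraries too, at 46.9, 51.2 and 63.8 CPM in WT and 30.2, 39 and 35.9 CPM in APP/PS1 (log2 fold change -0.62 ± 0.18 SE, FDR 0.787). Without WT replicate 3 the class I median was -0.056, with 1 gene lower and 2 higher at an unadjusted p under 0.05. With replicates 1 and 2 alone it was -0.14, with 3 genes lower and 3 higher, and 1 class I gene passed the FDR threshold on the higher side. Without WT replicate 1 or WT replicate 2 the number lower was 12 or 11 (medians -0.58 and -0.60), and without APP/PS1 replicate 1 or 2 it was 1.

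Class II genes, which present endocytosed peptides and are mostly expressed by professional antigen-presenting cells, followed the same library. The invariant chain Cd74 stood at 6.11, 6.54 and 356 CPM in WT and 5.48, 3.73 and 16.7 CPM in APP/PS1, and the class II chain H2-Ab1 at 1.62, 3.53 and 117 CPM in WT and 2.14, 2.78 and 13.6 CPM in APP/PS1. Of 13 genes 9 were tested, and their median of -2.69 became 0.45 without WT replicate 3, over 11 genes tested in that setting. Venous activation genes were also highest in it: Lrg1 stood at 45.3, 9.88 and 359 CPM in WT and 22.1, 49.9 and 71.9 CPM in APP/PS1 and Lcn2, lipocalin 2, at 4.6, 3.53 and 110.2 CPM in WT and 3.71, 6.45 and 8.56 CPM in APP/PS1. The interferon-induced GTPase gene Igtp stood at 110.1, 133 and 535 CPM in WT and 129, 150.1 and 164 CPM in APP/PS1, and 23 of 30 interferon-stimulated genes lay below 0 with a median of -0.13 and none at an unadjusted p under 0.05. Summed leukocyte markers were 3.57, 2 and 6.29 CPM in WT and 2.9, 3.8 and 2.13 CPM in APP/PS1, highest in the same library. WT replicate 3 led 2 of the 4 tested leukocyte genes, and WT replicate 1 also led 2. The 0.128 CPM of Ptprc in WT replicate 3 was less than that of another library. The part of leukocytes in the difference was not tested.

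**Figure D4:**
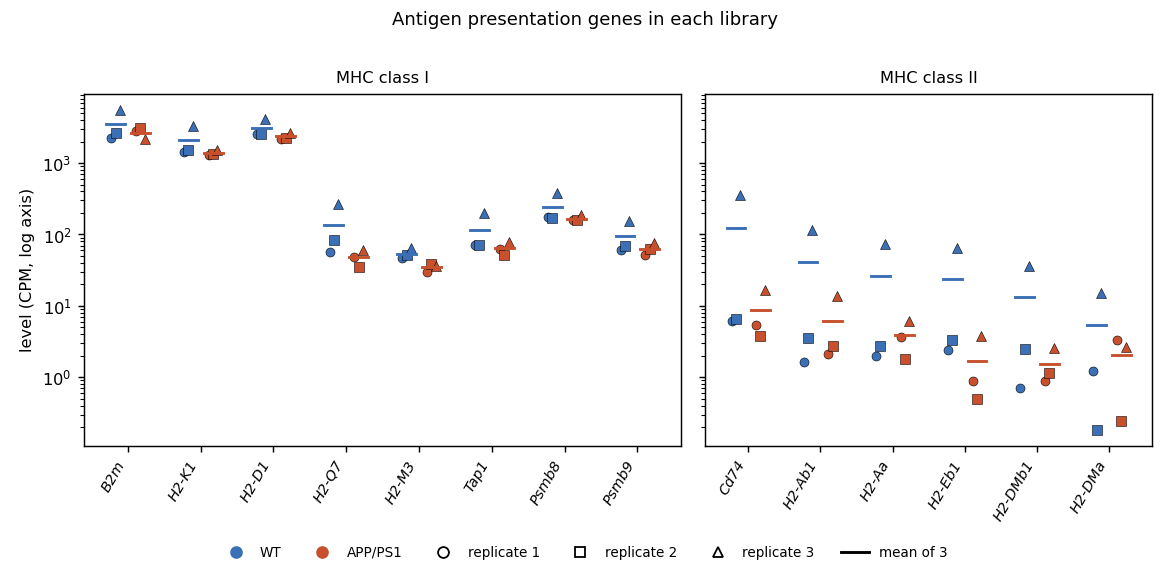
Levels of 8 class I and 6 class II genes in each library, in CPM on a log axis, with symbols as in the plot of mural markers. The blue triangle, WT replicate 3, lies above all other libraries for every gene shown, by a wide margin for class II, and the remaining WT libraries overlap APP/PS1 for all of them except H2-M3.

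Basement membrane genes were mostly slightly lower in APP/PS1. The basement membrane is a sheet of collagen IV, laminin, nidogen and perlecan laid down by endothelium and its neighbours. Of 19 genes, all tested, 16 lay below 0, 4 had an unadjusted p under 0.05 in that direction and 1 in the other, with a median of -0.21. Hspg2, perlecan, stood at 195, 291 and 168 CPM in WT and 139, 103 and 168 CPM in APP/PS1 and Nid2, nidogen 2, at 51.4, 61.8 and 42.5 CPM in WT and 26.3, 35.5 and 34.9 CPM in APP/PS1. Lamb1, the laminin beta 1 chain, was low and uneven at 4.75, 15.4 and 6.27 CPM in WT and 2.01, 0.596 and 4.47 CPM in APP/PS1 (log2 fold change -1.9 ± 0.69 SE). In these 3 genes the groups did not overlap, although for Hspg2 the nearest libraries of the groups were almost equal. Over all genes tested 5.44% were lower without overlap. Col4a2, a collagen IV chain, stood at 417, 398 and 254 CPM in WT and 203, 174 and 326 CPM in APP/PS1, with APP/PS1 replicate 3 inside the WT range. Bgn, the proteoglycan biglycan, was on the other side at 24, 9.36 and 27.2 CPM in WT and 48.3, 18.8 and 81.5 CPM in APP/PS1, with APP/PS1 replicate 2 inside the WT range. The number lower at an unadjusted p under 0.05 was 0 without WT replicate 2, 8 without APP/PS1 replicate 3 and 10 with replicates 1 and 2 alone. The median was -0.12 without WT replicate 1, -0.14 without WT replicate 2, -0.13 without APP/PS1 replicate 2, -0.47 without APP/PS1 replicate 3 and -0.53 with replicates 1 and 2 alone. Without WT replicate 2 the log2 fold change of Hspg2 went from -0.68 to -0.41 and that of Lamb1 to -1.22.

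Of ligands that act on vessels, Angpt2, Bmp4 and, at very low levels, Vegfa were higher in every APP/PS1 library. Bmp4, a bone morphogenetic protein, stood at 2.04, 1.21 and 2.61 CPM in WT and 9.06, 5.89 and 13.7 CPM in APP/PS1 (log2 fold change 2.29 ± 0.63 SE, FDR 0.787), and its relative Bmp6 was lower at 5.81, 3.56 and 4.41 CPM in WT and 2.45, 1.57 and 2.96 CPM in APP/PS1 (log2 fold change -0.98 ± 0.52 SE). The TGF-beta receptor Tgfbr2 was slightly lower at 545, 459 and 489 CPM in WT and 385, 424 and 433 CPM in APP/PS1. The angiopoietin and VEGF list lay mostly below 0, with 4 of 17 members above it and a median of -0.14, so that Angpt2 stood against most of its list. In the TGF-beta and BMP list 9 of 21 tested members were above 0, with a median of -0.069. Vegfa was under 1 CPM in all 6 libraries, at 0, 0.0527 and 0.0856 CPM in WT and 0.567, 0.149 and 0.199 CPM in APP/PS1 (log2 fold change 2.58 ± 1.86 SE, unadjusted p = 0.191).

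Genes that zone the endothelium along the vessel differed in single members. Jag1, an arterial Notch ligand, stood at 165, 113 and 186 CPM in WT and 227, 238 and 239 CPM in APP/PS1, and the arterial kinase Bmx at 151, 70.1 and 149.9 CPM in WT and 169.95, 179 and 179.9 CPM in APP/PS1, with all APP/PS1 libraries above WT and WT replicate 2 far below the rest. Without that library the log2 fold change of Bmx went from 0.51 to 0.23. Alpl, the alkaline phosphatase of capillaries and arterioles, was lower at 1181, 740.4 and 746 CPM in WT and 697, 568 and 682 CPM in APP/PS1 (log2 fold change -0.45 ± 0.17 SE, and -0.20 without WT replicate 1), and so was Spock2, a capillary proteoglycan, at 769.5, 865 and 552 CPM in WT and 489, 322 and 530.2 CPM in APP/PS1 (log2 fold change -0.70 ± 0.24 SE). The arterial, capillary and venous lists had medians of 0.058, -0.068 and -0.024. Vwf, von Willebrand factor, and Vcam1, the vascular adhesion molecule of inflamed endothelium, overlapped widely at 574, 206 and 654 CPM in WT and 442, 416 and 478 CPM in APP/PS1 and at 147, 29.97 and 441 CPM in WT and 196, 361 and 294 CPM in APP/PS1. The flow-induced factor Klf4 was slightly higher at 219, 227 and 169 CPM in WT and 313, 247 and 240.4 CPM in APP/PS1 (log2 fold change 0.38 ± 0.16 SE, and 0.25 without APP/PS1 replicate 1).

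The barrier genes were measured with small errors and lay close to 0. Of 15 tested junction genes 6 lay above 0, with a median of -0.040. Ocln, occludin, stood at 377, 411 and 374 CPM in WT and 431, 506 and 366 CPM in APP/PS1 (0.17 ± 0.14), and the scaffold gene Tjp1 at 326, 418 and 375 CPM in WT and 364, 376 and 323 CPM in APP/PS1 (-0.074 ± 0.13). Of the list only Jam3, a junctional adhesion molecule, had an unadjusted p under 0.05, and there WT replicate 2 at 63.2 CPM stood apart from the other 5 libraries, which lay between 18.1 and 27 CPM. None of the 22 transporter genes did. The glucose transporter Slc2a1 stood at 8844, 8849 and 7787 CPM in WT and 7432, 8291 and 8388 CPM in APP/PS1 (-0.080 ± 0.14) and the efflux pump Abcb1a at 829, 848 and 823 CPM in WT and 743, 942 and 704 CPM in APP/PS1 (-0.065 ± 0.13). Mfsd2a, the lipid transporter that restrains transcytosis, had a log2 fold change of 0.074 ± 0.24. The 19 tested Wnt pathway genes, which maintain the barrier, had a median of -0.075.

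As lists, genes that make or clear amyloid differed little, while single members were further apart. The clearance list had 7 of 17 tested members above 0 and a median of -0.10. Ece2 was lower in all APP/PS1 libraries (log2 fold change -0.68 ± 0.35 SE, FDR 0.829). App, the amyloid precursor gene, stood at 2174, 1871 and 2221 CPM in WT and 1775, 1705 and 2000.2 CPM in APP/PS1 (log2 fold change -0.19 ± 0.12 SE). Whether reads of the human transgene were counted at the mouse gene was not tested. Adam10, the alpha-secretase, was higher in all APP/PS1 libraries at 234, 214 and 225 CPM in WT and 318, 294 and 244 CPM in APP/PS1 (log2 fold change 0.35 ± 0.12 SE, FDR 0.787), and Ncstn, a subunit of gamma-secretase, lower in all of them at 163, 129.8 and 150.5 CPM in WT and 113, 120.02 and 129 CPM in APP/PS1 (log2 fold change -0.29 ± 0.13 SE). The secretase list had 11 of 18 tested members above 0 and a median of 0.042. Among clearance genes Picalm, an endocytic adaptor, stood at 82, 106 and 117 CPM in WT and 139, 132 and 117 CPM in APP/PS1 and the cholesterol exporter Abca1 at 80.5, 60.5 and 45.8 CPM in WT and 50.04, 44.7 and 18.9 CPM in APP/PS1, both with overlap and with unadjusted p = 0.0385 and 0.0466 (edgeR quasi-likelihood test). Lrp1, a receptor that carries amyloid peptide out of the brain, was low in these cells at 1.86, 0 and 5.86 CPM in WT and 2.33, 2.46 and 3.78 CPM in APP/PS1.

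Of the cell death genes around Ripk1 only Tnfaip3 had an unadjusted p under 0.05. Ripk1, the kinase that the remaining genotype of the series is named for, had a log2 fold change of 0.40 ± 0.23 and Casp8, the protease that restrains necroptosis, of 0.11 ± 0.15. Of 20 genes 10 lay above 0, with a median of 0.016. Tnfaip3, the NF-kB inhibitor A20, stood at 18.9, 7.28 and 14.9 CPM in WT and 21.8, 32 and 16.7 CPM in APP/PS1 (log2 fold change 0.78 ± 0.35 SE, FDR 0.796) with overlap, and 3 genes of the list were lower in all APP/PS1 libraries. These were Fadd, a death receptor adaptor (-0.44 ± 0.26), Ikbkg, which encodes NEMO (-0.42 ± 0.23), and Rbck1, a subunit of the linear ubiquitin ligase (-0.21 ± 0.12). None was higher in all APP/PS1 libraries, and over all genes tested 5.44% were lower and 5.43% higher in all of them. From other lists, Traf1, a TNF receptor adaptor among NF-kB targets, stood at 8.26, 3.19 and 9.33 CPM in WT and 13, 12.8 and 13.9 CPM in APP/PS1 without overlap (log2 fold change 0.93 ± 0.37 SE, and 0.59 without WT replicate 2). The survival gene Bcl2, from the apoptosis list, was higher in every APP/PS1 library at 9.91, 6.09 and 6.48 CPM in WT and 23.3, 16.8 and 11 CPM in APP/PS1 (log2 fold change 1.18 ± 0.34 SE, FDR 0.787).

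Of 22 tested cholesterol synthesis genes 3 had an unadjusted p under 0.05 on the higher side, none passed the FDR threshold and the median was 0.090. Insig1, the sterol sensor that holds SREBP in the endoplasmic reticulum, stood at 25.3, 26.1 and 38.8 CPM in WT and 50.6, 49.9 and 46.1 CPM in APP/PS1 (log2 fold change 0.70 ± 0.18 SE), and Sqle, squalene epoxidase, at 7.94, 8.25 and 12.1 CPM in WT and 13.8, 15.3 and 16.3 CPM in APP/PS1. They were 2 of 3 genes of the list that were higher without overlap, against 5.43% of all genes tested. Eif2ak3, which encodes the unfolded protein sensor PERK, was lower at 26.8, 23.2 and 29.1 CPM in WT and 15.9, 11.6 and 15.6 CPM in APP/PS1 (log2 fold change -0.88 ± 0.30 SE, FDR 0.787), while the list of unfolded protein response genes had a median of 0.019. The metallothioneins Mt1 and Mt2, metal-binding proteins induced by glucocorticoid, were lower at 133, 247 and 111 CPM in WT and 105, 93.3 and 94.6 CPM in APP/PS1 and at 57.5, 102 and 58.6 CPM in WT and 52.1, 37.7 and 49.4 CPM in APP/PS1, with WT replicate 2 the highest. Without it their log2 fold changes went from -0.75 and -0.65 to -0.32 and -0.32.

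Cytosolic ribosomal protein genes lay below 0 in 60 of 66 cases with a median of -0.15, and nuclear-encoded respiratory chain genes in 42 of 54 with a median of -0.10. The shift was small beside the errors of single genes: Rpl27 alone of the ribosomal genes had an unadjusted p under 0.05, at 139, 135 and 124 CPM in WT and 101, 107 and 115 CPM in APP/PS1. WT replicate 1 was the highest library in 43 of the 66, and without it the median was -0.095. Without APP/PS1 replicate 3 19 ribosomal genes were lower at an unadjusted p under 0.05 (median -0.24), and with replicates 1 and 2 alone 17 were (median -0.25). Without APP/PS1 replicate 2 the median was -0.095. Members of such lists share the scaling of their library, so that their counts are not those of independent genes. The share of Rn45s, given above, also differed between the genotypes without overlap, and without Rn45s in the scaling the ribosomal median was -0.15. Upper-quartile scaling gave -0.15 and RLE scaling -0.14.

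**Figure D5:**
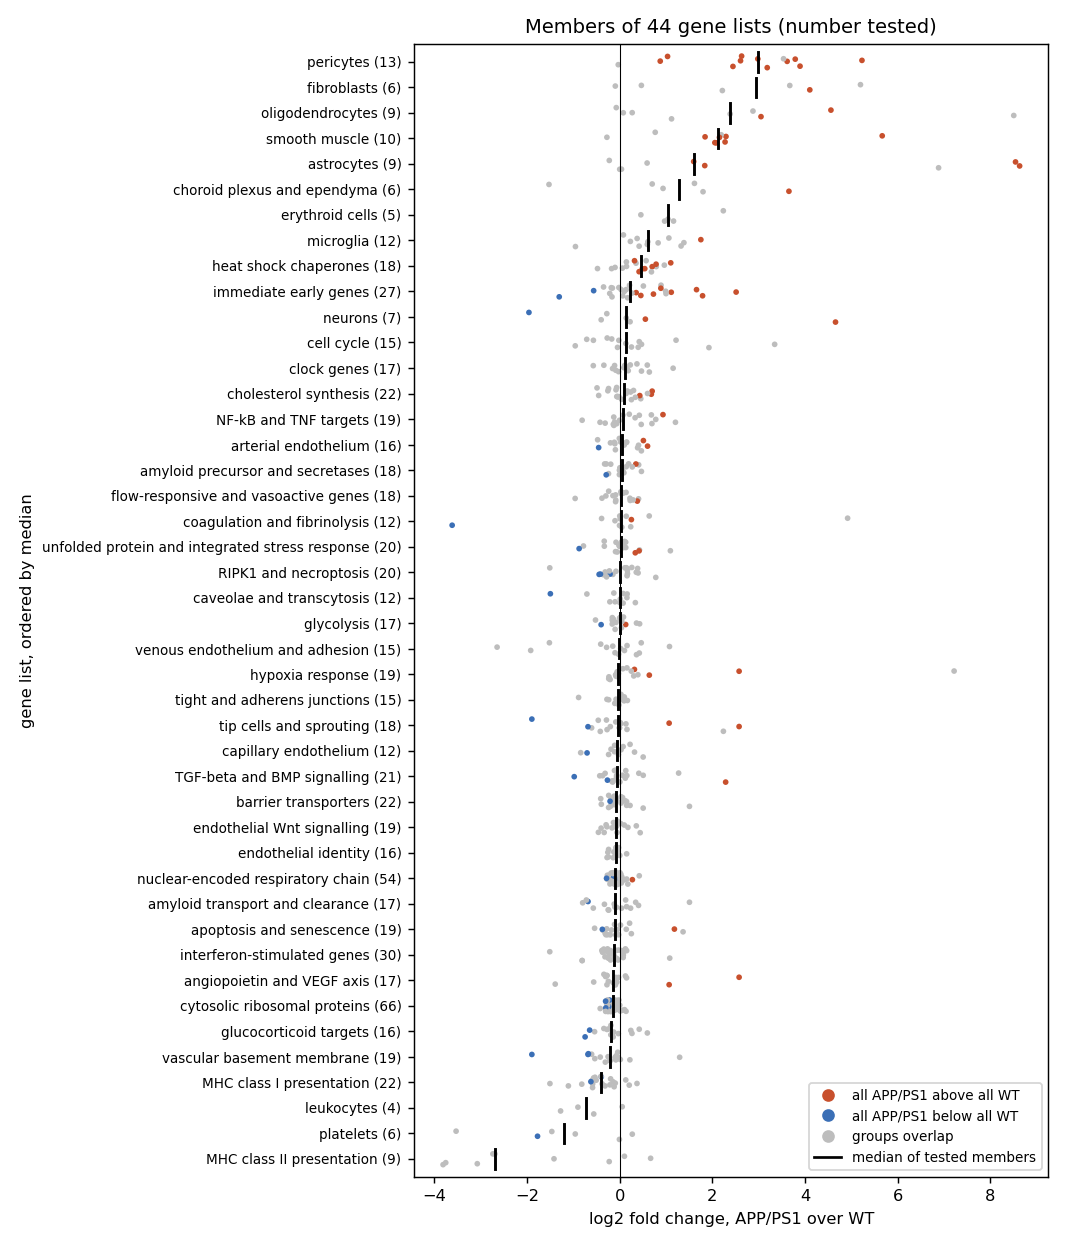
Log2 fold changes, APP/PS1 over WT, of the tested members of 44 gene lists, ordered by their median (black line), with the number tested in brackets. Red points are genes with all 3 APP/PS1 libraries above all 3 WT libraries, blue points the reverse and grey points genes that overlap. The pericyte list has the highest median and the class II list the lowest, and junction, transporter and identity genes of endothelium lie close to 0.

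The authors' deposited table for the same genotypes, made with a likelihood ratio test, listed 26 of 12460 genes at an FDR under 0.05. All 24 genes taken by the rule for single genes were in the authors' deposited table with the same sign, and 7 of them passed that threshold there. That table comes from the same series, and the rule chose genes without overlap in it, so the shared sign is not independent evidence. In the authors' deposited table the log2 fold change was 0.58 for Braf (FDR 0.175), 1.05 for Angpt2 (FDR 0.0451) and 0.67 for Hsp90aa1 (FDR 0.198). The deposited values were further from those computed here for Galnt15, at -0.43 (FDR 0.522) in the authors' deposited table. Here the likelihood ratio test on the 6 libraries called 50 genes, 36 higher and 14 lower.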

How the data were processed

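The authors deposited RSEM expected counts per gene symbol; per the submitters' processing notes the tools were Bowtie 0.12.2, RSEM and edgeR 3.10.2 and the build mm10 (GRCm38). For the counting annotation, the sources used here name none. The authors' deposited table of this comparison holds log2 fold changes and log2 CPM, p-values and FDR, and the likelihood ratio statistic (a score), made with edgeR per the file headers and the submitters' processing notes, and served only for the values credited to it. Libraries were not stranded and carried no molecular identifiers, so floors of 3 counts cover counting error only.

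Expected counts were rounded, filtered with filterByExpr (minimum count 10, minimum total 15), scaled by TMM and fitted in 1 edgeR 4.0.16 quasi-likelihood model over all 9 libraries with 1 coefficient per genotype; the contrast was tested 2-sided with Benjamini-Hochberg adjustment over 13317 genes. Alternatives used DESeq2 1.42.0 and limma 3.58.1 in R 4.3.3, and other scalings, filters and sets of libraries; a count of list members in each setting and sums for replicates 1 and 2 alone were added after seeing the data. The fit was tested on simulated counts, drawn independently for each library from the fitted spread of each gene. They held no split in Xist and no library apart in whole gene groups, so that test does not bear on either. Summed levels were compared by an exact permutation test. The labels state no block, so the main fit has no replicate block. Over all genes same-numbered libraries did not deviate together (r across genes 0.00316 to 0.0165). Replicate number nevertheless went with the split in Xist and Y-linked transcripts, which such a correlation cannot exclude.

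Named genes are those past the FDR threshold, the 12 per direction with the smallest p of at least 5 CPM without overlap, up to 3 per direction of each list without overlap, the 2 most abundant of a list, and the ends of short lists; a fixed set that includes App, Ripk1, Cldn5 and Cd74 was added. Abca1, Aqp4, Arntl, Atf3, Bag3, Bgn, Col4a2, Col6a1, Dbp, Dcn, Dpt, Dusp1, Fosb, Gfap, H2-K1, Hspa1a, Hspa1b, Hspd1, Hspe1, Igtp, Jun, Junb, Kcnj8, Lrg1, Lum, Mlc1, Ndufa4l2, Notch3, Pdgfrb, Per2, Picalm, Rgs4, Tap1, Trem2 and Zfp36 fall outside that rule and were named after their values were seen. Members and lists were chosen with earlier results of these data known. Several selected genes enter the counts and are not reported here. Gene positions are those of GENCODE M21, matched by symbol for 98.2% of genes.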

Additional observations from a re-analysis of the deposited data

Results flagged for a closer look

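The third genotype of the series, APP/PS1xRIPK1KD, is not one of the genotypes compared and enters the fit through the estimate of the spread, and its libraries carried pericyte transcripts above every WT library. The summed level of the 13 pericyte markers was 65.6, 93 and 143 CPM in its replicates 1, 2 and 3, against a highest WT value of 29.6 CPM and a lowest APP/PS1 value of 132 CPM. The values were singled out because they lie outside the genotypes compared and above the WT libraries. Its smooth muscle markers summed to 59.3, 136 and 385 CPM in replicates 1, 2 and 3. Replicates 1 and 2 lay inside the WT range and below every APP/PS1 value, and replicate 3 lay above every APP/PS1 value. The cause of either was not tested.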

How the results depend on the processing

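The count of 3 called genes depended on the test and its filter. No filter on low counts gave 7 calls (6 higher, 1 lower), DESeq2 45 (35 higher, 10 lower), the edgeR exact test on 6 libraries 42 (31 higher, 11 lower) and the likelihood ratio test on 6 libraries 50 (36 higher, 14 lower). Leaving out 1 library at a time gave 1 to 5 calls, of which 1 to 4 were higher and 0 to 1 lower. The 1 call remained without WT replicate 3 and the 5 calls arose without APP/PS1 replicate 2. With the replicate number as a replicate block the fit called 2 genes, both among the 3; Atp13a5 missed the threshold there (FDR 0.101). The replicates 1 and 2 alone gave 3 calls, of which 1 was among the 3. A covariate for high or low Xist in the fit of all libraries gave 3 calls, the same 3. The ratio of summed pericyte levels, 6.53, ran from 5.28 to 7.71 over its alternatives. Of 94 named genes under the alternatives, giving 1775 values, none reversed, 52 passed the threshold newly and 11 lost it. The latter were values of Vtn and Atp13a5. The groups of all 94 genes did not overlap, so a reversed sign was hardly possible and its absence carries little weight. Genes named above whose groups overlap were not followed. Over 45 medians (44 lists and all genes) and 585 values, 48 moved by more than the spread between libraries and 66 changed sign, the cause of which was not tested.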

Other observations

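Clock genes varied widely among mice of the same genotype. Dbp, an output gene of the circadian clock, stood at 14.5, 219.9 and 131 CPM in WT and 219, 24.1 and 103 CPM in APP/PS1, a wide range in both genotypes. Per2, a repressor of the clock, stood at 1.33, 70.7 and 16.8 CPM in WT and 45.6, 3.58 and 31.2 CPM in APP/PS1, and Arntl (Bmal1), which peaks in the opposite phase, at 73.9, 10.4 and 31.5 CPM in WT and 23.1, 61.9 and 37.6 CPM in APP/PS1. WT replicate 1 and APP/PS1 replicate 2 had the lowest Dbp and Per2 and the highest Arntl of the 6 libraries. All 17 clock genes were tested, none had an unadjusted p under 0.05, and none separated the genotypes. The labels give no time of day.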
